A study of Homo sapiens with 36 samples.

Results

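The genes of autophagy and of the restraint on mTORC1 followed here were SQSTM1, MAP1LC3B, GABARAPL1, WIPI1, ULK1, LAMP3, SESN2, DDIT4 and TFEB, which were measured in 36 RNA-seq libraries of cisplatin-resistant human testicular germ cell tumor (TGCT) cells. They were taken by symbol, through the NCBI GeneID that names each row, from the 3 deposited gene tables, and all 9 were found in each table. They are 9 of 18078 genes listed in any of the tables, which held 16431, 17035 and 16459 genes. The cells were NT2/D1-A4 and 2102EP-C1, each 1 cisplatin-resistant clone derived from an embryonal carcinoma line (NT2/D1 and 2102EP). In the GSK-J4 experiment of each clone, cells were controls, were given cisplatin (0.5 µM, 6 h), were kept in GSK-J4 (1 µM, 3 days), or had GSK-J4 followed by cisplatin. GSK-J4 inhibits KDM6A and KDM6B, the demethylases that remove the repressive histone mark H3K27me3. In the knockdown experiment, 2102EP-C1 cells carried the empty lentiviral vector (pLKO.1) or hairpins that target both KDM6A and KDM6B (sh6A+6B), and were left untreated or given the same cisplatin. Cells given cisplatin were harvested 24 h after it, with 3 libraries for each of 4 arms per experiment. The series describes these as biological triplicates, and where the labels name no separate cultures the p-values measure only the spread between these libraries, which may be technical.

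Autophagy wraps cytoplasm in a double membrane and delivers it to lysosomes. The kinase ULK1 starts the process, the phosphoinositide-binding protein WIPI1 acts where the membrane grows, the ubiquitin-like proteins MAP1LC3B (LC3B) and GABARAPL1 are conjugated to it, and SQSTM1 (p62) tethers ubiquitinated cargo to them. The kinase complex mTORC1 holds autophagy back when nutrients are plentiful, both by phosphorylating ULK1 and by keeping TFEB, a transcription factor for lysosomal and autophagy genes, out of the nucleus. SESN2 (Sestrin 2), which acts through the GATOR complexes, and DDIT4 (REDD1), which acts through the TSC complex, restrain mTORC1 under stress, and LAMP3 is a lysosome-associated membrane protein that is induced by hypoxia and endoplasmic reticulum stress.

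Promoter sequence is shown for DDIT4, SESN2 and WIPI1, which rose with GSK-J4 in both clones, and for GABARAPL1, which did not pass the limits in either. The RefSeq table for GRCh38.p14 held windows for 8 of the 9 genes, LAMP3 being the exception. Each sequence is the 250 bases before the annotated start of the gene, written 5′ to 3′ on the strand of the gene. Capitals mark CCAAT boxes, read as CCAAT or as its reverse complement, in the first 3 sequences and the cAMP response element TGACGTCA in the last. The windows are chr10:72273674-72273923 (plus strand, DDIT4), chr1:28259268-28259517 (plus strand, SESN2), chr17:68457497-68457746 (minus strand, WIPI1) and chr12:10212627-10212876 (plus strand, GABARAPL1).
DDIT4: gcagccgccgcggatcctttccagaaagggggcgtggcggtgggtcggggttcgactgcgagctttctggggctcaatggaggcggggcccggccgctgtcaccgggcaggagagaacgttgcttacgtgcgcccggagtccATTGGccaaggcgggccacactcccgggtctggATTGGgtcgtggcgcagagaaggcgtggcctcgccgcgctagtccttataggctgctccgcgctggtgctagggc
SESN2: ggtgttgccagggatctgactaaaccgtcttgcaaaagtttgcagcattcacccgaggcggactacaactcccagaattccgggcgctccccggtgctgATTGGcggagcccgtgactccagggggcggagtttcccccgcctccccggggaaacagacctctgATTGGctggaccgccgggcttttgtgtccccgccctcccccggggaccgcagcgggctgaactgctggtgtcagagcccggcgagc
WIPI1: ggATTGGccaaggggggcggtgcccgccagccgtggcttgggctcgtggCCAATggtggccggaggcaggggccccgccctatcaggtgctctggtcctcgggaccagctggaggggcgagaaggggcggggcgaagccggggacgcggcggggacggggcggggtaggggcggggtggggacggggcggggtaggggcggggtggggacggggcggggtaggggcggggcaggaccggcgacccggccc
GABARAPL1: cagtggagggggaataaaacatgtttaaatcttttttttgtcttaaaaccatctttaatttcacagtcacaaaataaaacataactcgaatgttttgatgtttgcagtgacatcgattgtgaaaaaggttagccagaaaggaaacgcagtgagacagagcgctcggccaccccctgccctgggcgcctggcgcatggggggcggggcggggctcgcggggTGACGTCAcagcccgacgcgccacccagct
These 3 genes were the only members with a window that held a CCAAT box, and each held 2, beginning at -108 and -75 from the start in DDIT4, at -151 and -86 in SESN2, and at -248 and -201 in WIPI1. CCAAT is a common motif, present on either strand in 32.0% of 35116 promoter windows of the same length. The 3 of 8 members that held it are near that background, which counts windows, and SQSTM1 and TFEB had more than 1 window each. A link between the motif and the changes was not tested. GABARAPL1 alone held TGACGTCA, which was found in 1.65% of windows and began at -30 from its start. MAP1LC3B was the only member with TGACNNNGC, the core of the antioxidant response element (10.9% of windows). No member window held TGATGNAA, a core of C/EBP-ATF response elements (3.14% of windows), or CACGTG, the E-box within TFEB sites (6.34% of windows). All motifs were searched on both strands, overlapping matches of different motifs were kept, and a match describes letters in a window and not binding.

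Depth from recovered reads had a median of 35.3 M reads per library in the NT2/D1-A4 experiment (26.8 to 49.5 M), 37.2 M in the 2102EP-C1 GSK-J4 experiment (30.3 to 53.6 M) and 88.4 M in the knockdown experiment (79.4 to 100.9 M). The 9 embryonal carcinoma markers checked, POU5F1 and NANOG among them, were expressed in every arm. Their summed level moved with GSK-J4, from 7794 to 7969 CPM in controls to 6241 to 6459 CPM in NT2/D1-A4 cells and from 11071 to 11357 CPM to 9739 to 9890 CPM in 2102EP-C1 cells, and from 10506 to 10559 CPM to 9869 to 9990 CPM with sh6A+6B. DNMT3B fell with GSK-J4 in both clones, by 0.79 and 0.43 on the log2 scale, and TDGF1 rose in NT2/D1-A4 cells (0.75). Of 10 markers of other cell types, GATA6, CGA, CDX2 and PTPRC were not among the genes listed in any experiment. The 6, 5 and 4 that were listed summed to 25.1 to 29.0, 78.8 to 83.0 and 82.5 to 84.6 CPM in untreated cells and to 23.1 to 24.04, 75.9 to 83.2 and 82.1 to 86.5 CPM with GSK-J4 or sh6A+6B. Within them GATA4 and AFP rose with GSK-J4 in both clones, PAX6 rose and COL1A2 fell in NT2/D1-A4 cells and TBXT rose with sh6A+6B, and their part in the results on the 9 genes was not tested. In bulk RNA, fewer cells of a type and less RNA per cell cannot be told apart. In the knockdown libraries, KDM6A was at 7.16, 7.17 and 7.15 log2 CPM with pLKO.1 and 6.14, 6.09 and 6.20 with sh6A+6B, and KDM6B was at 4.61, 4.66 and 4.63 against 3.51, 3.61 and 3.75. Both fell by 1.01 on the log2 scale, while under GSK-J4 KDM6B mRNA rose by 0.88 and 0.81 in the respective clones.

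Levels of the 9 genes in untreated cells were compared per kilobase of the reference transcript, within each experiment. GABARAPL1 was the most abundant in each, at 65.1 CPM per kilobase in NT2/D1-A4 controls and 92.3 in 2102EP-C1 controls, and LAMP3 was the lowest, at 0.267 CPM per kilobase in NT2/D1-A4 cells. In NT2/D1-A4 cells the order on the log2 CPM per kilobase scale was GABARAPL1 (6.02 ± 0.03, SD, n = 3), SQSTM1 (5.47 ± 0.04), MAP1LC3B (5.21 ± 0.03), DDIT4 (2.50 ± 0.14), SESN2 (2.26 ± 0.04), ULK1 (2.20 ± 0.08), WIPI1 (-0.24 ± 0.20), TFEB (-1.03 ± 0.12) and LAMP3 (-1.91 ± 0.40). The libraries of SESN2 and ULK1 overlapped there, and those of the other neighbours in this order did not. DDIT4 stood second in 2102EP-C1 cells, in both of their tables, with untreated libraries at 5.95 to 6.15 log2 CPM in the GSK-J4 table and 5.69 to 5.76 with pLKO.1, where those of NT2/D1-A4 cells were at 3.17 to 3.44. MAP1LC3B and SQSTM1 were neighbours in 2102EP-C1 controls at 4.71 ± 0.05 and 4.66 ± 0.03 and overlapped. The tables were normalized separately, and levels set across them carry no test.

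**Figure D1:**
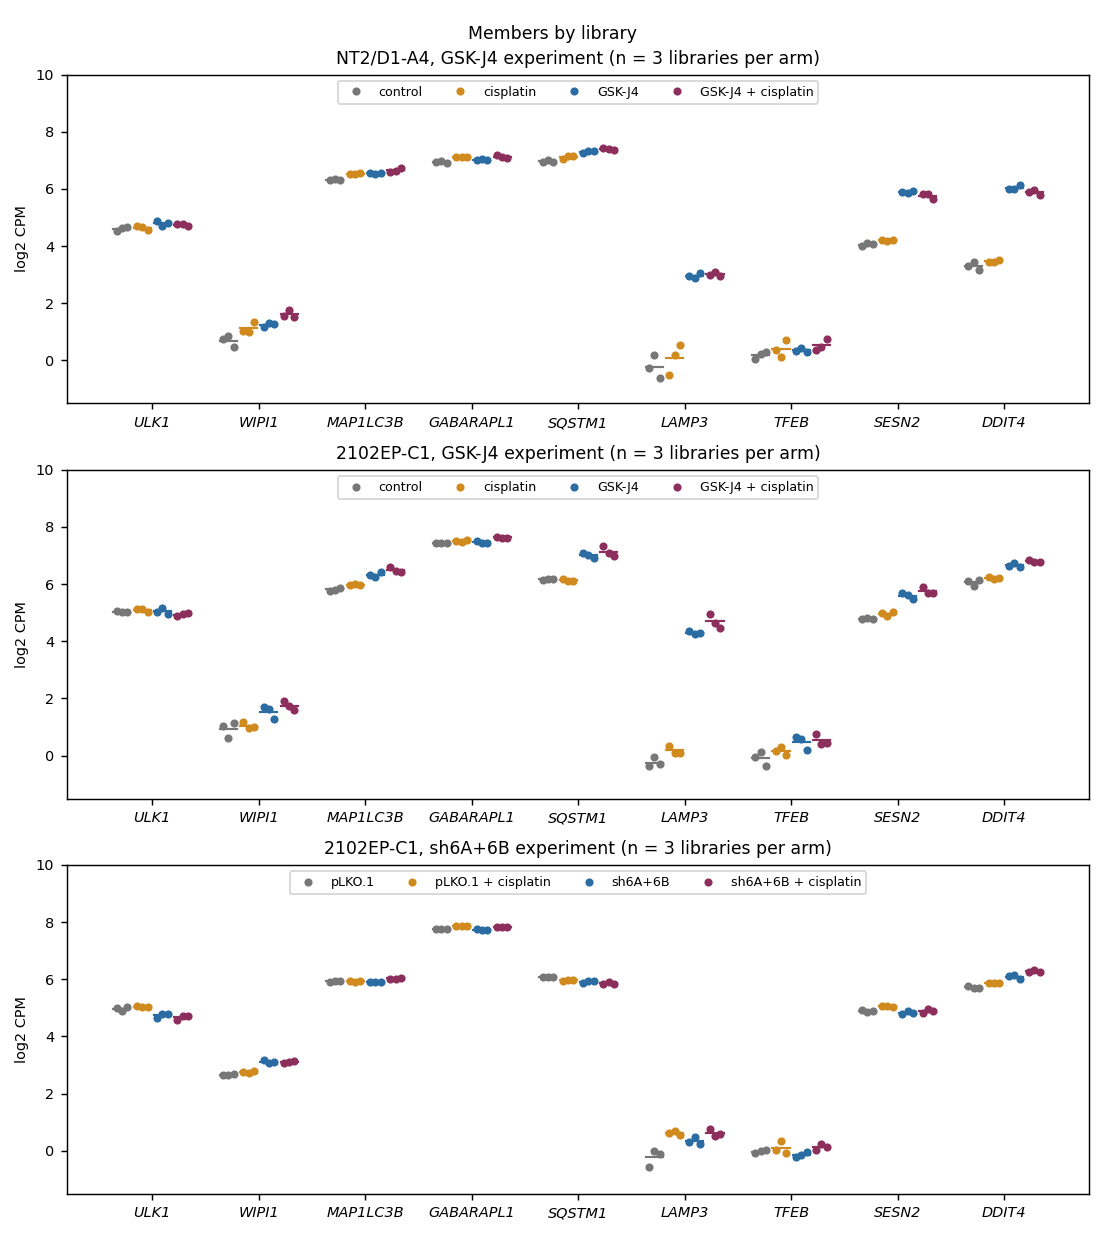
Level of the 9 genes in log2 CPM (vertical axis) in each library, by arm (color), for the 3 experiments. Points are libraries and short lines are arm means (n = 3). LAMP3, SESN2 and DDIT4 with GSK-J4 lie above the arms without it in both clones, and with sh6A+6B LAMP3 and DDIT4 are above pLKO.1 alone.

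The first question was what GSK-J4 or KDM6A/KDM6B knockdown did to these genes without cisplatin. The limits for a call were a fold of more than 1.3 together with an adjusted p under 0.05 (limma-trend, Benjamini-Hochberg over all genes of the table). GSK-J4 raised 4 of the 9 in NT2/D1-A4 cells, where 13.8% of all genes rose, and 7 of the 9 rose in 2102EP-C1 cells, where 7.79% did. With sh6A+6B 3 of the 9 rose, beside 6.34% of all genes. None of the 9 fell in any of the 3, where 6.48%, 3.12% and 5.74% of all genes did. LAMP3, WIPI1 and DDIT4 rose in all 3 experiments, SESN2 rose with GSK-J4 in both clones and not with sh6A+6B, and SQSTM1, MAP1LC3B and TFEB rose with GSK-J4 in 2102EP-C1 cells. The median log2 difference over the 9 genes was 0.33, 0.60 and -0.02, beside 0.0084, -0.0017 and -0.0047 over all genes. All 9 genes had GSK-J4 libraries wholly above their controls in NT2/D1-A4 cells (30.4% of all genes did), 7 did in 2102EP-C1 cells (23.8%), and with sh6A+6B 3 lay wholly above (28.3%) and 2 wholly below (29.9%).

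Among the mTORC1 brakes, DDIT4 and SESN2 had the smallest adjusted p-values of all members in NT2/D1-A4 cells. DDIT4 (GeneID 54541, chromosome 10: 72273924-72276036) was at 3.31, 3.44 and 3.17 log2 CPM in NT2/D1-A4 controls and at 5.98, 6.01 and 6.14 with GSK-J4. Every GSK-J4 library was above every control, and the difference was 2.74 ± 0.06 (SE), a fold of 6.67 (adjusted p = 2.7e-16). In 2102EP-C1 cells DDIT4 started higher, at 6.09, 5.95 and 6.15, and reached 6.65, 6.75 and 6.58 with GSK-J4. That gap was 0.60 ± 0.05 (fold 1.51, adjusted p = 1.1e-10), again with no overlap. With sh6A+6B the gene was at 6.12, 6.15 and 6.02 against 5.76, 5.69 and 5.70 with pLKO.1. The knockdown difference of 0.38 ± 0.03 (adjusted p = 1e-10) lay at the fold limit, and it stayed above pLKO.1 in all 3 libraries but dropped under the fold limit when any 1 of pLKO.1 replicates 2 and 3 or sh6A+6B replicates 1 and 2 was left out (0.35 to 0.42 over all libraries left out in turn).

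SESN2 (GeneID 83667, chromosome 1: 28259518-28282491) was at 4.01, 4.09 and 4.07 log2 CPM in NT2/D1-A4 controls and at 5.90, 5.86 and 5.91 with GSK-J4. Every GSK-J4 library lay above every control, and the difference was 1.84 ± 0.05 (fold 3.57, adjusted p = 2e-15). In 2102EP-C1 cells it went from 4.78, 4.81 and 4.76 to 5.68, 5.62 and 5.48, a difference of 0.81 ± 0.06 (fold 1.75, adjusted p = 1.1e-11) with no overlap. With sh6A+6B it was at 4.79, 4.90 and 4.83 against 4.93, 4.86 and 4.90, and these arms overlapped. The interval of that difference ran from -0.13 to 0.02 (95%, adjusted p = 0.19), so a rise of the size seen with GSK-J4 lay outside it.

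LAMP3 (GeneID 27074, chromosome 3: 183122215-183163813) had the largest difference of the 9 genes in each experiment, from a low base. NT2/D1-A4 controls were at -0.26, 0.19 and -0.61 log2 CPM (17 to 45 reads) and GSK-J4 libraries at 2.94, 2.88 and 3.07 (240 to 370 reads). The difference was 3.19 ± 0.21 (fold 9.14, adjusted p = 5.5e-10). In 2102EP-C1 cells the gene went from -0.38, -0.05 and -0.30 (24 to 39 reads) to between 4.24 and 4.34 in the 3 GSK-J4 libraries (616 to 689 reads), which is 4.54 ± 0.12 and a fold of 23.2 (adjusted p = 1.4e-20). These folds are on the scale of log2 CPM with a prior count of 3, which understates the change of low genes, and with a prior of 0.5 the LAMP3 differences were 3.30 and 4.65. With sh6A+6B it was at 0.31, 0.47 and 0.24 against -0.56, 0.00 and -0.11 with pLKO.1, a difference of 0.56 ± 0.13 (fold 1.48, adjusted p = 7.4e-04). The sh6A+6B libraries were all above the pLKO.1 libraries. The GSK-J4 and knockdown tables were normalized separately, and the gap between 4.54 and 0.56 in the same clone was not tested.

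TFEB (GeneID 7942, chromosome 6: 41683978-41736223) was the other lysosome-related member and was near 0 log2 CPM throughout. In 2102EP-C1 cells it was at -0.04, 0.13 and -0.37 in controls and at 0.64, 0.60 and 0.18 with GSK-J4 (37 to 47 reads). The lowest GSK-J4 library stood just above the highest control, and the difference was 0.57 ± 0.19 (adjusted p = 0.022). That call was lost without control replicate 3 or without GSK-J4 replicate 1 or 2, and over all libraries left out in turn the difference was 0.43 to 0.71, with a limma adjusted p of up to 0.13. In NT2/D1-A4 cells TFEB differed by 0.16 ± 0.18 (adjusted p = 0.48) and with sh6A+6B by -0.11 ± 0.13 (adjusted p = 0.47).

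The genes of the autophagosome itself had folds of at most 1.80. SQSTM1 (GeneID 8878, chromosome 5: 179806393-179838078) was at 6.13, 6.19 and 6.16 log2 CPM in 2102EP-C1 controls and at 7.08, 7.02 and 6.92 with GSK-J4, a difference of 0.84 ± 0.06 (fold 1.80, adjusted p = 4.9e-12). In NT2/D1-A4 cells it was at 6.95, 7.02 and 6.94 and at 7.26, 7.34 and 7.32 with GSK-J4. There the arms were also separate, but the difference of 0.33 ± 0.04 (fold 1.26, adjusted p = 1e-06) did not reach the fold limit. Under sh6A+6B the value lay lower than with pLKO.1 in every library, at 5.88, 5.94 and 5.93 against 6.09, 6.07 and 6.09. That difference was -0.17 ± 0.03 (adjusted p = 9.1e-06), which is under the fold limit and opposite in sign to the GSK-J4 value of the same clone, a contrast between tables that was not tested.

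MAP1LC3B (GeneID 81631, chromosome 16: 87392336-87404774) was at 5.77, 5.81 and 5.87 log2 CPM in 2102EP-C1 controls and at 6.32, 6.26 and 6.42 with GSK-J4, and rose by 0.51 ± 0.05 (fold 1.43, adjusted p = 1.1e-09). In NT2/D1-A4 cells it was at 6.30 to 6.35 in controls and 6.54 to 6.55 with GSK-J4, a difference of 0.23 ± 0.04 (adjusted p = 7.7e-05) under the fold limit. With sh6A+6B the arms overlapped (-0.02 ± 0.02, adjusted p = 0.41). Reads of MAP1LC3B can be shared with its near copy MAP1LC3B2, which was listed in the GSK-J4 tables at 6 to 26 reads per library against at least 1888 for MAP1LC3B. GABARAPL3, a near copy of GABARAPL1, was not among the genes listed in any experiment. The split of reads between copies remains uncertain.

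WIPI1 (GeneID 55062, chromosome 17: 68421281-68457496) rose in all 3 experiments. It was at 0.74, 0.87 and 0.48 log2 CPM in NT2/D1-A4 controls and at 1.18, 1.33 and 1.26 with GSK-J4, a difference of 0.56 ± 0.14 (adjusted p = 0.0027). In 2102EP-C1 cells it went from 1.03, 0.60 and 1.13 to 1.70, 1.62 and 1.29, which is 0.62 ± 0.15 (adjusted p = 0.0021), and neither pair of arms overlapped. With sh6A+6B it was at 3.18, 3.07 and 3.09 against 2.66, 2.65 and 2.67, a difference of 0.45 ± 0.05 (adjusted p = 1.8e-08). WIPI1 levels in 2102EP-C1 controls and in pLKO.1 cells, 0.92 and 2.66 log2 CPM on average, come from separate tables and the gap was not tested.

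ULK1 and GABARAPL1 passed the limits nowhere in this comparison. ULK1 (GeneID 8408, chromosome 12: 131894622-131923150) was at 4.52 to 4.68 log2 CPM in NT2/D1-A4 controls and 4.69 to 4.88 with GSK-J4, a difference of 0.18 ± 0.06 (adjusted p = 0.013), and differed by 0.01 ± 0.05 in 2102EP-C1 cells (adjusted p = 0.93). With sh6A+6B ULK1 was at 4.66, 4.79 and 4.78 against 4.99, 4.90 and 5.02 with pLKO.1. All 3 knockdown libraries were lower, and the difference of -0.23 ± 0.04 (adjusted p = 2.7e-05) was under the fold limit. GABARAPL1 (GeneID 23710, chromosome 12: 10212877-10223128), the most abundant of the 9, differed by 0.08 ± 0.03, 0.03 ± 0.03 and -0.01 ± 0.02. The widest of those intervals ended at 0.16, so a fold of 1.3 lay outside all 3.

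**Figure D2:**
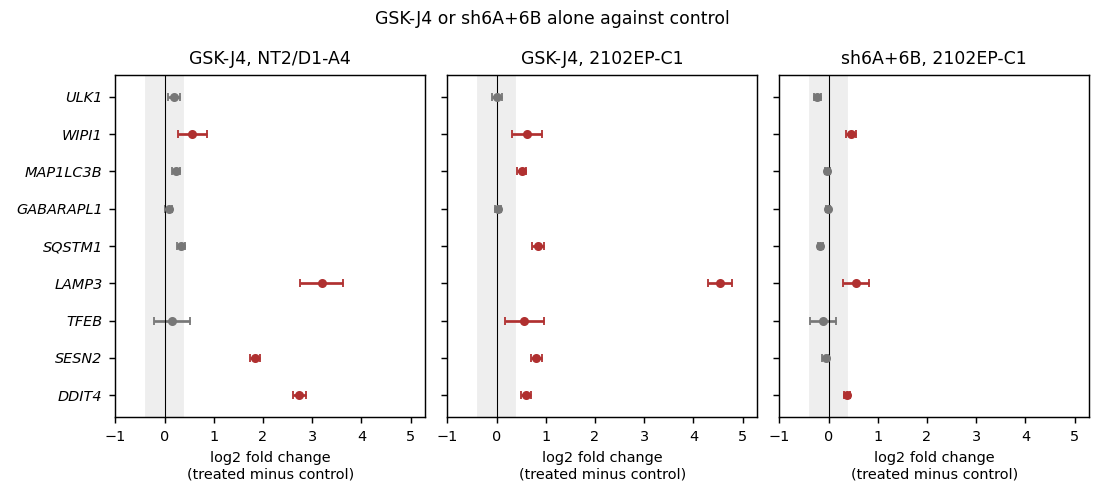
Log2 fold change of each gene with GSK-J4 or sh6A+6B alone against its control (horizontal axis), with 95% intervals, in the 3 experiments. Red points passed both limits, gray points did not, and the gray band is the range of a fold change up to 1.3. LAMP3 is farthest to the right with GSK-J4, at 3.19 and 4.54, and all values with sh6A+6B are at or under 0.56.

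The other genes of the pathway were described by list. Of 138 genes in 6 lists (137 in NT2/D1-A4 cells), 17 rose and 1 fell under GSK-J4 in the NT2/D1-A4 experiment, 10 rose and 1 fell in 2102EP-C1 cells, and 3 rose and 1 fell with sh6A+6B. That is 13.1%, 7.97% and 2.90% of those measured, where 20.3%, 10.9% and 12.1% of all genes were called in either direction. Of all genes, 13.8%, 7.79% and 6.34% rose. Core autophagy machinery, with the ATG proteins and the lipid kinase complex, had 2 of 34 genes up in NT2/D1-A4 cells, namely ULK2 (0.55 ± 0.08), the paralog of ULK1, and WDR45 (0.39 ± 0.07), a relative of WIPI1. None of its 35 genes was called in 2102EP-C1 cells or with sh6A+6B by limma-trend or by voom, while 17 and 18 of them were under an unadjusted p of 0.05, as were 44.2% and 57.7% of all genes. The median of this list was 0.02, 0.06 and -0.03.

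Selective autophagy receptors had 3 of 14 genes up in NT2/D1-A4 cells, 4 up in 2102EP-C1 cells and none with sh6A+6B (9 under an unadjusted p of 0.05, beside the same 57.7% of all genes, and none by voom). RETREG1, a receptor for endoplasmic reticulum, rose by 1.15 ± 0.11 and 0.72 ± 0.12 in the clones, and OPTN, a receptor for ubiquitinated cargo, by 0.45 ± 0.07 and 0.60 ± 0.08. Lysosome genes had 5 up and 1 down of 36 in NT2/D1-A4 cells, 1 down in 2102EP-C1 cells and 1 up with sh6A+6B, with medians of 0.20, 0.06 and 0.05. Beside both lists, 13.8%, 7.79% and 6.34% of all genes rose, and 6.48%, 3.12% and 5.74% fell. LIPA, the lysosomal acid lipase, rose in NT2/D1-A4 cells (0.51 ± 0.06) and with sh6A+6B (0.45 ± 0.03), and GUSB, the lysosomal β-glucuronidase, rose in NT2/D1-A4 cells (0.47 ± 0.06). CTSA fell by 0.38 in NT2/D1-A4 cells and NAGLU fell by 0.50 in 2102EP-C1 cells.

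Other mTORC1 brakes had 3 of 20 genes up in NT2/D1-A4 cells, 2 up in 2102EP-C1 cells, and 1 up and 1 down with sh6A+6B. Of all genes, 13.8%, 7.79% and 6.34% rose, and 5.74% fell with sh6A+6B. The counts were near those shares, and the list medians were -0.0025, -0.04 and 0.02. The largest rises in NT2/D1-A4 cells were SESN1 (0.87 ± 0.05) and DDIT4L (0.72 ± 0.12), paralogs of members. In 2102EP-C1 cells PRKAA2, a catalytic subunit of AMPK, rose by 0.55 ± 0.07 and SESN3, also a paralog, by 0.51 ± 0.05. A difference between the clones was not tested. With sh6A+6B PRKAA2 rose (0.50 ± 0.04) and DEPTOR, an inhibitory mTOR partner, fell by 0.40. Of 22 genes for mTORC1 and its activators, none was called in NT2/D1-A4 cells (12 under an unadjusted p of 0.05, beside 54.3% of all genes, and none by voom), 3 rose in 2102EP-C1 cells with RRAGD (0.55 ± 0.12) and FNIP2 (0.45 ± 0.08) the largest, and RRAGD, a Rag GTPase, rose with sh6A+6B (0.96 ± 0.07).

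Among transcription regulators of these pathways, DDIT3 (CHOP), a factor of the integrated stress response, rose by 2.04 ± 0.10 under GSK-J4 in NT2/D1-A4 and by 2.31 ± 0.09 in 2102EP-C1 cells and differed by 0.16 with sh6A+6B, under the fold limit. ATF4, which acts upstream of DDIT3, differed by 0.38, 0.30 and 0.15, under the fold limit in each (adjusted p = 3.1e-08, 7e-08 and 1.1e-06). The TFEB relatives MITF (0.51 ± 0.16) and TFEC (1.79 ± 0.42) and the oxidative stress factor NFE2L2 (0.47 ± 0.04) rose in NT2/D1-A4 cells. They did not pass both limits in the other tables, and whether the experiments differed was not tested. TFE3, FOXO1, FOXO3, HIF1A and ZKSCAN3 passed both limits in none, with differences between -0.18 (HIF1A, NT2/D1-A4) and 0.28 (FOXO3, NT2/D1-A4).

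**Figure D3:**
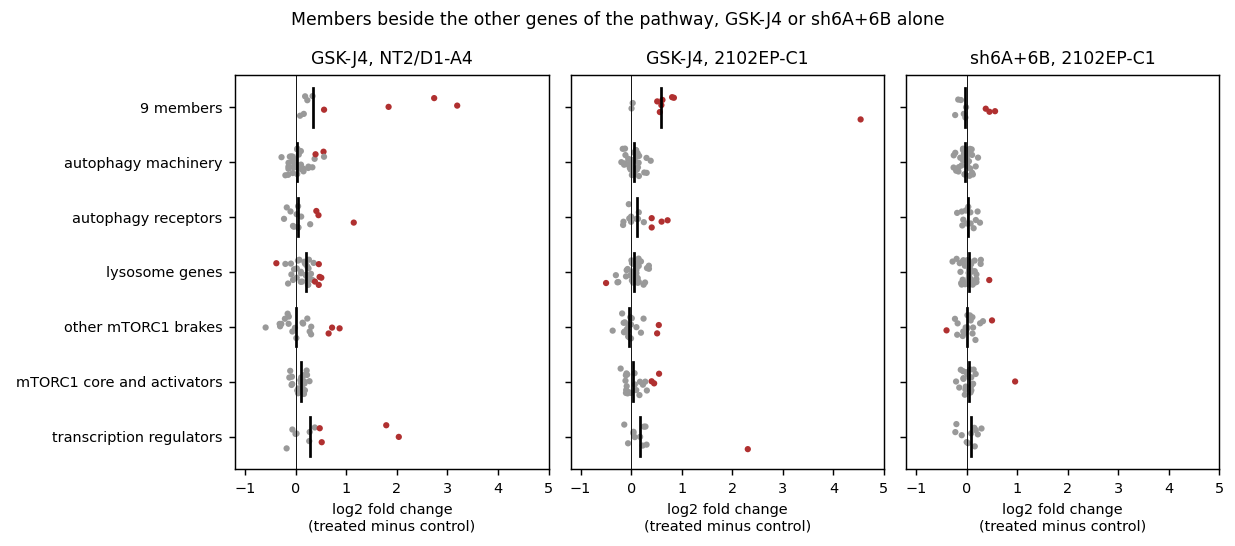
Log2 fold change with GSK-J4 or sh6A+6B alone (horizontal axis) for the 9 members and for the other genes of the pathway by list, in the 3 experiments. Each point is a gene, red where it passed both limits, and black bars are list medians. The members' medians of 0.33 and 0.60 with GSK-J4 lie to the right of the medians of the 6 lists, which run from -0.0025 to 0.28 in NT2/D1-A4 and from -0.04 to 0.18 in 2102EP-C1 cells. Members and lists were chosen with earlier results of these data known.

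Next, the effect of cisplatin on the same genes was examined. None of the 9 genes passed both limits in NT2/D1-A4 cells by limma-trend or by voom, where 2.45% of all genes were called in either direction and 6 of the 9 were under an unadjusted p of 0.05, beside 24.7% of all genes. MAP1LC3B (0.22 ± 0.04, adjusted p = 0.0017), GABARAPL1 (0.17 ± 0.03, adjusted p = 0.0039) and SQSTM1 (0.14 ± 0.04, adjusted p = 0.025) were higher with cisplatin but under the fold limit. WIPI1 had the largest value there, at 1.02, 1.01 and 1.35 log2 CPM against 0.74, 0.87 and 0.48 (0.43 ± 0.14, adjusted p = 0.060). In 2102EP-C1 and pLKO.1 cells, LAMP3 was the only one of the 9 to pass both limits, beside 0.881% and 2.53% of all genes that rose. Under the fold limit, MAP1LC3B was higher in 2102EP-C1 cells (0.16 ± 0.05, adjusted p = 0.042). GABARAPL1 (0.11 ± 0.02, adjusted p = 7.8e-06), DDIT4 (0.16 ± 0.03, adjusted p = 1.1e-04) and SESN2 (0.16 ± 0.03, adjusted p = 7.8e-04) were higher in pLKO.1 cells. SQSTM1 was lower there (-0.12 ± 0.03, adjusted p = 8.8e-04), also under the fold limit. The markers of other cell types summed to 33.7 to 35.6 CPM with cisplatin in NT2/D1-A4 cells, 100.4 to 104.2 CPM in 2102EP-C1 cells and 101.7 to 103.5 CPM in pLKO.1 cells, above the untreated ranges given earlier. Most of each sum came from the highest gene of the list. Its mean was 24.7, 77.0 and 75.3 CPM with cisplatin, against 18.1, 59.4 and 60.7 CPM for the highest gene in untreated cells. The embryonal carcinoma markers summed to 7221 to 7535, 10480 to 10624 and 9946 to 10010 CPM, below the untreated ranges, and the part of either list was not tested.

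LAMP3 was at 0.35, 0.11 and 0.09 log2 CPM in 2102EP-C1 cells with cisplatin (36 to 46 reads), each above the 3 controls, a difference of 0.43 ± 0.12 (adjusted p = 0.039). The call was lost with voom, in a fit of only the 6 libraries compared, and without any 1 of 7 libraries (control replicates 1 and 3, the 3 cisplatin replicates, GSK-J4 replicate 1 and GSK-J4 with cisplatin replicate 2), with differences of 0.34 to 0.52 over all libraries left out in turn. In pLKO.1 cells it was at 0.63, 0.70 and 0.54 with cisplatin (117 to 160 reads) against -0.56, 0.00 and -0.11. The 3 treated libraries were above the 3 pLKO.1 libraries, by 0.84 ± 0.13 (fold 1.80, adjusted p = 1.6e-05).

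Cisplatin was then compared within cells that already had GSK-J4 or sh6A+6B. Among NT2/D1-A4 libraries with GSK-J4 none of the 9 genes was called by limma-trend or by voom, beside 0.377% of all genes, with 5 under an unadjusted p of 0.05 beside 14.6% of all genes. In 2102EP-C1 cells with GSK-J4, LAMP3 alone was called, at 4.97, 4.65 and 4.46 log2 CPM against 4.24 to 4.34, where 0.916% of all genes rose. Its difference of 0.40 ± 0.12 (adjusted p = 0.023) fell to 0.26 without the first GSK-J4 with cisplatin library, and the call was lost without any 1 of 4 libraries (GSK-J4 replicates 1 and 2, GSK-J4 with cisplatin replicates 1 and 2). That first library was the highest of its arm for 8 of the 9 genes, for example SQSTM1 at 7.34 against 7.08 and 6.99. GABARAPL1 (0.16 ± 0.03, adjusted p = 8.4e-04) and MAP1LC3B (0.17 ± 0.05, adjusted p = 0.011) were also higher in these cells, under the fold limit. So were SESN2 (0.17 ± 0.06, adjusted p = 0.04) and DDIT4 (0.14 ± 0.05, adjusted p = 0.043). With sh6A+6B none was called by limma-trend or by voom, beside 3.52% of all genes, with 6 under an unadjusted p of 0.05 beside 51.0% of all genes. MAP1LC3B (0.13 ± 0.02, adjusted p = 8.2e-05), DDIT4 (0.18 ± 0.03, adjusted p = 1.2e-05) and GABARAPL1 (0.07 ± 0.02, adjusted p = 5.1e-04) were higher under the fold limit.

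**Figure D4:**
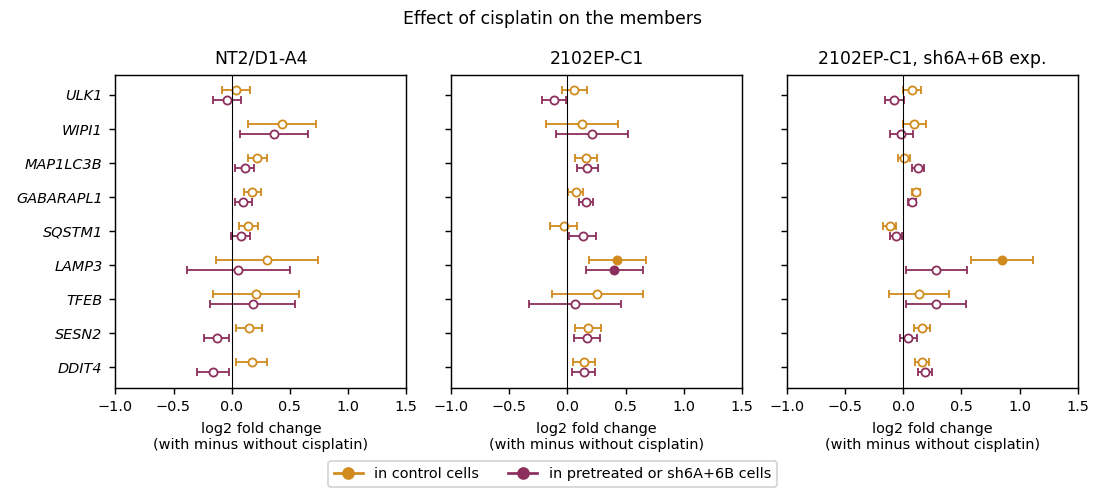
Log2 fold change with against without cisplatin (horizontal axis) in control cells (orange) and in cells with GSK-J4 or sh6A+6B (purple), with 95% intervals, for the 9 genes in the 3 experiments. Filled points passed both limits. LAMP3 is the only gene with filled points, at 0.43 and 0.40 in 2102EP-C1 cells and at 0.84 in pLKO.1 cells.

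The combination of GSK-J4 and cisplatin against untreated cells shares its control libraries with GSK-J4 alone, and its values are given side by side. By the same limits, 5 of the 9 genes rose in NT2/D1-A4 cells (15.9% of all genes rose), 7 in 2102EP-C1 cells (12.8%) and 3 with sh6A+6B and cisplatin (8.51%). SQSTM1 joined the 4 genes above in NT2/D1-A4 cells at 7.42, 7.38 and 7.34 log2 CPM, a difference of 0.41 ± 0.04 (adjusted p = 5.3e-08), and WIPI1 reached 1.57, 1.78 and 1.51 (0.92 ± 0.14, adjusted p = 1.9e-05). DDIT4, SESN2 and LAMP3 were at 2.57, 1.71 and 3.25 above control there. In 2102EP-C1 cells the differences were 4.94 for LAMP3, 0.98 for SESN2, 0.97 for SQSTM1, 0.83 for WIPI1, 0.73 for DDIT4, 0.68 for MAP1LC3B and 0.63 for TFEB, the last lost without control replicate 3. With sh6A+6B and cisplatin they were 0.85 for LAMP3, 0.56 for DDIT4 and 0.44 for WIPI1. ULK1 (-0.30 ± 0.04, adjusted p = 3e-07) and SQSTM1 (-0.23 ± 0.03, adjusted p = 5.6e-08) were lower there, under the fold limit. MAP1LC3B (0.10 ± 0.02, adjusted p = 4.4e-04) and GABARAPL1 (0.06 ± 0.02, adjusted p = 0.0013) were higher, also under the fold limit.

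Against cisplatin alone, GSK-J4 with cisplatin raised 4 genes in NT2/D1-A4 cells, each of which also rose with GSK-J4 alone, by 2.40 (DDIT4), 1.56 (SESN2), 2.95 (LAMP3) and 0.49 (WIPI1), beside 12.8% of all genes that rose. In 2102EP-C1 cells 6 rose (10.5% of all genes did), with SQSTM1 at 1.01 ± 0.06 (fold 2.01) and LAMP3 at 4.51 ± 0.12, and TFEB at 0.38 did not pass (adjusted p = 0.11). With sh6A+6B DDIT4 alone rose past both limits (0.40 ± 0.03, adjusted p = 1.7e-11), beside 6.40% of all genes. SESN2 (-0.17 ± 0.03, adjusted p = 1.5e-04), SQSTM1 (-0.11 ± 0.03, adjusted p = 9e-04) and GABARAPL1 (-0.05 ± 0.02, adjusted p = 0.014) were lower under the fold limit. The contrast with GSK-J4 in this clone (0.80 for SESN2, 1.01 for SQSTM1) was not tested. Also with sh6A+6B, WIPI1 (0.34 ± 0.05, adjusted p = 9e-07) and MAP1LC3B (0.10 ± 0.02, adjusted p = 8.7e-04) were higher under the fold limit. ULK1 was at 4.59, 4.71 and 4.71 log2 CPM there against 5.06, 5.02 and 5.05 with pLKO.1 and cisplatin, a difference of -0.37 ± 0.04 (adjusted p = 8.4e-09) that stood just under the fold limit and passed it without any 1 of 3 libraries (pLKO.1 with cisplatin replicate 2, sh6A+6B with cisplatin replicates 2 and 3). LAMP3, at 0.75, 0.52 and 0.61 with sh6A+6B and cisplatin, overlapped the 0.54 to 0.70 of pLKO.1 with cisplatin.

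Whether GSK-J4 or sh6A+6B changed the effect of cisplatin was tested as an interaction. None of the 9 genes passed both limits in either GSK-J4 experiment by limma-trend or by voom, beside 0.0426% and 0.857% of all genes, and 2 and 3 of them were under an unadjusted p of 0.05, beside 7.15% and 17.6% of all genes. DDIT4 (-0.33 ± 0.09, adjusted p = 0.39) and SESN2 (-0.28 ± 0.07, adjusted p = 0.38) had the largest values in NT2/D1-A4 cells. In the knockdown experiment, where 2.67% of all genes passed with a negative interaction, LAMP3 did so at -0.56 ± 0.18 (adjusted p = 0.018). Cisplatin moved LAMP3 by 0.84 in pLKO.1 cells and by 0.29 in sh6A+6B cells, and the call was lost without pLKO.1 replicate 1, the lowest of its arm at -0.56 (-0.39, adjusted p = 0.070). With no fold limit, 3 of the 9 were under an adjusted p of 0.05 in that experiment (limma), beside 35.1% of all genes, a share near the background.

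Across the 12 libraries of each GSK-J4 experiment, the genes whose pattern was most like each member were ranked by the lower of their Pearson correlations in the 2 experiments, among genes with a mean log2 value of at least 1 in both. These values are descriptions over libraries that share 4 arms. SESN2 was nearest to DAP (r = 0.989 for NT2/D1-A4 and 0.997 for 2102EP-C1) and ZFAND3 (0.989 in both), DDIT4 to HLA-B (0.99 in both) and GADD45A (0.99 in both), and LAMP3 to SEL1L3 (0.98 and 0.99) and CHMP4C (0.98 and 0.99). SQSTM1 was near to WNT5B (0.98 in both), MAP1LC3B to ZNF823 (0.96 in both) and CAMK2D (0.96 and 0.97), and WIPI1 to HSPB8 (0.92 and 0.94) and CAST (0.92 in both). The nearest to GABARAPL1 were SMARCA1 (0.90 and 0.87) and LMNA (0.88 and 0.86), those to ULK1 were QSOX1 (0.84 and 0.88) and SLC25A42 (0.83 and 0.86), and those to TFEB were LCA5 (0.73 and 0.81) and RNF14 (0.78 and 0.72).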

How the data were processed

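The 3 deposited tables each gave log2 CPM per gene for 12 libraries. Per the study's methods and the submitters' processing notes, reads from stranded mRNA libraries were trimmed with Trimmomatic, aligned to GRCh38.p14 with STAR, counted with featureCounts, filtered at 0.5 CPM in at least 2 samples and TMM-normalized. Tool versions and the strand setting of the counting are not given in the sources used here. The values fit a prior count of 3, and recovered reads under 50 were within 0.05 of a whole number in 100% of cases.

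Each table was fitted with limma-trend (limma 3.58.1, R 4.3.3) on group means of its 12 libraries, with no block, since the deposited unit was log2 and not counts. Tests were two-sided, with Benjamini-Hochberg adjustment over all genes. Errors are SE for differences and SD for levels. Scripts were tested on simulated data. The 9 genes, the gene lists and the tests were chosen with earlier results of these data known. Named genes were the 9 members, the 2 largest rises and 2 largest falls called per list with GSK-J4 or sh6A+6B alone, all listed transcription regulators, the 2 genes most like each member, near copies, and KDM6A and KDM6B. Marker genes were named as checks. Some results under this rule are not reported here. Alternatives were a filter on the mean log2 value (at least 1), a fit of only the libraries compared, a block for replicate number, a prior count of 0.5, scaling to library size only or by median of ratios, voom, and leaving out each library. Replicate numbers were not used to pair libraries. Promoter windows came from RefSeq (GRCh38.p14).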

Additional observations from a re-analysis of the deposited data

Results flagged for a closer look

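In the knockdown experiment the effect of cisplatin differed between sh6A+6B and pLKO.1 cells for 3 of the 9 genes by the interaction test of limma (adjusted p under 0.05, whatever the fold), which 35.1% of all genes passed, so this count is near the background. LAMP3 had an interaction of -0.56 (adjusted p = 0.018), MAP1LC3B one of 0.12 (adjusted p = 0.0053) and ULK1 one of -0.15 (adjusted p = 0.035), and the values of MAP1LC3B and ULK1 were under the fold limit. Some values also pointed in opposite directions between experiments with every library of 1 arm on 1 side of the other arm, and these differences between experiments were not tested. ULK1 in the combination was 0.14 for NT2/D1-A4 and -0.11 for 2102EP-C1 (limma adjusted p = 0.044 and 0.079). Against cisplatin alone it was 0.11 and -0.17 (adjusted p = 0.13 and 0.0084). Cisplatin within GSK-J4 cells gave -0.13 and 0.17 for SESN2 in the same order (adjusted p = 0.25 and 0.04). For DDIT4 it gave -0.16 and 0.14 (adjusted p = 0.25 and 0.043). SQSTM1 with cisplatin alone was 0.14 for NT2/D1-A4 and -0.12 for pLKO.1 cells (adjusted p = 0.025 and 8.8e-04). All of these values were under the fold limit. Separate arms are common with 3 libraries each, and with GSK-J4 alone 30.4% and 23.8% of all genes lay wholly above control in the clones.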

How the results depend on the processing

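Of 162 values for single members, 21 changed sign under some setting, each of them uncalled and at most 0.13 in size. The ranges below are over the libraries left out in turn. In NT2/D1-A4 cells the ranges were for cisplatin alone ULK1 -0.0077 to 0.071, and for cisplatin within pretreated cells ULK1 -0.093 to 0.0038, and for pretreatment within cisplatin-treated cells GABARAPL1 -0.016 to 0.033, TFEB -0.0075 to 0.29, and for the interaction WIPI1 -0.15 to 0.045, TFEB -0.17 to 0.13. In 2102EP-C1 cells with the GSK-J4 experiment the ranges were for pretreatment alone ULK1 -0.047 to 0.058, and for cisplatin alone WIPI1 -0.030 to 0.23, and for cisplatin within pretreated cells TFEB -0.080 to 0.15, and for the interaction MAP1LC3B -0.041 to 0.053, WIPI1 -0.040 to 0.24, LAMP3 -0.16 to 0.089, SESN2 -0.078 to 0.037, DDIT4 -0.050 to 0.051. In the knockdown experiment the ranges were for cisplatin alone MAP1LC3B -0.0075 to 0.021, and for the combination SESN2 -0.048 to 0.025, and for cisplatin within pretreated cells WIPI1 -0.038 to 0.015, and for pretreatment within cisplatin-treated cells LAMP3 -0.060 to 0.058, TFEB -0.058 to 0.16, and for the interaction DDIT4 -0.015 to 0.051. By another scaling, ULK1 with GSK-J4 alone in 2102EP-C1 cells was -0.00056 (median of ratios), and with library size only the MAP1LC3B interaction there was -0.0019, GABARAPL1 with sh6A+6B alone 0.0060 and the SESN2 combination with sh6A+6B 0.011.

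Counts of members called moved in few cases. For cisplatin alone in NT2/D1-A4 cells the count of 0 became 1 with library size only, through WIPI1 (0.45), and was 0 to 1 over the libraries left out. In 2102EP-C1 cells it went from 1 to 0 with only the libraries compared and with voom, and was 0 to 1 over the libraries left out, as it was for cisplatin within GSK-J4 cells. The filter on a mean log2 value of at least 1 removed TFEB in the 2102EP-C1 GSK-J4 experiment, and with it the TFEB calls for GSK-J4 alone and for the combination. In the knockdown experiment, that filter removed LAMP3 and took both cisplatin alone and the interaction from 1 to 0. The LAMP3 calls for sh6A+6B alone and for the combination were removed too. Over the libraries left out there, the interaction had 0 to 1 members and sh6A+6B within cisplatin-treated cells 1 to 2. Library size only also took SQSTM1 with GSK-J4 alone (0.38) and MAP1LC3B in the combination (0.39) past the fold limit in NT2/D1-A4 cells. That scaling moved the median of all genes by at most 0.05.

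Same-numbered libraries of different arms correlated at -0.18 to 0.28, -0.13 to 0.10 and -0.17 to 0.31 in the 3 experiments. Different-numbered ones correlated at -0.28 to 0.20, -0.11 to 0.12 and -0.34 to 0.17, and 5, 2 and 7 of 12 libraries correlated best with their own number. The numbers were not read as pairs, though these overlapping ranges do not settle whether the knockdown libraries were paired. With the replicate number as a block, 4, 7 and 3 members were called with GSK-J4 or sh6A+6B alone. Over all genes, the filter on the mean lowered some counts by over 1.5 times, for example from 3332 to 2208 for GSK-J4 alone in the NT2/D1-A4 table, which follows from fewer genes tested. Cisplatin within GSK-J4 cells went from 62 to 18 there with only the libraries compared. In 2102EP-C1 cells the count for cisplatin within GSK-J4 cells was 164 to 725 over the libraries left out. LAMP3, TFEB and WIPI1 had the fewest reads of the 9 genes in untreated libraries of the GSK-J4 experiments. They held 17 to 45, 32 to 46 and 39 to 74 reads in NT2/D1-A4 cells, and 24 to 39, 31 to 40 and 57 to 112 in 2102EP-C1 cells. In the deeper pLKO.1 libraries LAMP3 held 58 to 86 reads and TFEB 82 to 95.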

Other observations

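The genes most like a member across the GSK-J4 experiments had varied correlations with it across the 12 libraries of the knockdown experiment, which the ranking did not use. These are descriptions over libraries that share 4 arms. CAST and WIPI1 had r = 0.96 there, and HSPB8 and WIPI1 had r = -0.90. GADD45A and DDIT4 had r = 0.80 and HLA-B and DDIT4 had r = -0.76. SMARCA1 and LMNA had r = 0.91 and 0.90 with GABARAPL1, while DAP had r = -0.58 with SESN2 and SEL1L3 had r = 0.36 with LAMP3.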
